A study of Mus musculus with 9 samples.

Results

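ATF4 is the transcription factor at the centre of the integrated stress response, and the genes described here are Atf4 itself, the factors that work with it or are switched on by it, and their downstream genes. They are 40 of the 22165 genes counted, chosen by name for what they are known to do, with earlier results of these data known. They fall into 6 roles: 6 transcription factors and their regulators, 6 stress effectors, 7 enzymes of amino acid and one-carbon metabolism, 5 amino acid transporters, 12 aminoacyl-tRNA synthetases and 4 genes of the endoplasmic reticulum (ER) stress response. All 40 were found in the table, and 38 had enough reads to be tested.

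The libraries came from mouse bone marrow-derived macrophages (BMDM), macrophages grown in culture from marrow precursors, of the C57BL/6N strain, made from mice 6 to 16 weeks old. Every library was from cells given the bacterial endotoxin lipopolysaccharide (LPS) at 100 ng/mL for 24 h, so no unstimulated level can be given. The 3 groups had 3 libraries each: wild-type (WT) cells with LPS, Irg1-/- (KO) cells with LPS, and Irg1-/- cells with LPS plus 1 mM itaconate added 4 h later (KO with itaconate). Irg1, listed in the count table as Acod1, encodes the enzyme that makes itaconate in activated macrophages, so the comparisons ask what its loss does to the stress response and whether added itaconate changes it. The labels do not say whether the libraries of a group came from different mice, so the p-values rest on the variation among libraries, which could be technical.

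In the integrated stress response, kinases that sense unfolded protein, amino acid shortage, double-stranded RNA or mitochondrial and heme stress phosphorylate the translation factor eIF2. General translation falls, while the Atf4 message is translated more, so that much of the control of ATF4 lies at the protein level and is not seen in RNA counts. ATF4 then pairs with C/EBP-family proteins at a composite DNA element and raises genes for amino acid import, amino acid synthesis and tRNA charging, and, under lasting stress, the CHOP gene Ddit3. Thiol-reactive esters of itaconate are known to cause electrophilic stress in macrophages; free itaconate is the form used here.

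The composite element, TGATGNAA read on either strand, was present in the RefSeq promoter window (250 bases before to 50 after the annotated start, GRCm38.p6) of 12 of the 33 members that have a window, or 36.4%. Among all 27025 genes with windows the share was 4.51%. Counted by window, it was 12 of 38 against 3.97% of 32851. The 12 genes were Nupr1, Trib3, Chac1, Vldlr, Asns, Pck2, Gars, Yars, Aars, Iars, Tars and Herpud1. The ER stress response element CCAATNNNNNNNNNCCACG was found, on either strand, in the window of Hspa5 alone, or 3.03% of the members with a window against 0.137% of all genes, and no member window held both elements. A letter match is a description of sequence and no evidence of binding in these cells. The 7 stretches below were picked to show an element in 1 or 2 genes of several roles. That of Hspa5 shows the ER stress response element and the others the composite element. The match is in capitals, and each stretch is read 5′ to 3′ on the strand of its gene. Chac1 lies at chr2:119351038-119351067 (plus strand), Nupr1 at chr7:126625562-126625591 (minus strand), Asns at chr6:7693214-7693243 (minus strand), Pck2 at chr14:55540152-55540181 (plus strand), Gars at chr6:55037960-55037989 (plus strand), Tars at chr15:11399659-11399684 (minus strand) and Hspa5 at chr2:34772020-34772048 (plus strand). In Chac1, Nupr1, Pck2, Gars and Tars the match lies on the strand opposite to the gene, so its reverse complement is printed. The stretches of Nupr1, Asns, Tars and Hspa5 reach into the gene as GENCODE annotates it.
Chac1: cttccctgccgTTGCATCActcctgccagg
Nupr1: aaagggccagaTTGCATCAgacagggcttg
Asns: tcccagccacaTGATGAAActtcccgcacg
Pck2: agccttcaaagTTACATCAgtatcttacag
Gars: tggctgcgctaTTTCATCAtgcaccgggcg
Tars: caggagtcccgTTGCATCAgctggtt
Hspa5: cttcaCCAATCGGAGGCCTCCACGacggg

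Several facts of the libraries touch every result below. Reads assigned to genes ranged from 7361671 to 20430359 per library, and 3 reads, the floor used here, equal 0.147 to 0.401 CPM (counts scaled to library size with TMM factors), which covers counting error only. Irg1 went against the labels in 4 of the 9 libraries. Its level was 11.3, 9.14 and 4170.1 CPM in the WT libraries (replicates 1 to 3, the order used throughout), 7.53, 12.9 and 4420.7 in the KO libraries, and 8.68, 0.877 and 6420.6 in the KO libraries with itaconate. LPS induces Irg1 strongly in macrophages, so WT replicates 1 and 2 were low for their label, while KO replicate 3 and KO with itaconate replicate 3 were high for theirs. Replicate 3 was thus the only library high in Irg1 in each group. For a gene highest in replicate 3 of every group, replicate number and Irg1 level cannot be told apart. Which exons the allele removes is not given in the sources used here, and the reads come from 3′ ends, so reads in a KO library do not by themselves show an intact gene. Group names below are therefore those of the labels, and differences are also given without these 4 libraries. That fit has WT replicate 3 as its only WT library, beside replicates 1 and 2 of both KO groups. Its differences from WT therefore rest on 1 WT library, which is assumed to vary like the libraries of the other groups. KO with itaconate replicate 3 was unlike the rest: its correlation with the other libraries averaged 0.909, against 0.939 to 0.954, and with 0.709% mitochondrial reads against 1.27% to 2.57%. A number before the barcode in the labels, taken here as a pool, was 1 for all WT libraries and KO replicates 1 and 2, 2 for KO replicate 3 and KO with itaconate replicate 1, and 3 and 4 for the last pair. All 7 macrophage markers passed the filter on low counts, with summed levels of 7264 to 9552 CPM in WT, 6517 to 7045 in KO and 3590 to 7064 in KO with itaconate. Summed B cell, T or NK cell, mast cell and erythroid markers stayed at or below 0.803 CPM in every library, and the T or NK markers Cd3e and Nkg7 had 0 reads. Summed neutrophil markers, mainly S100a8 and S100a9, gave 78.0 to 245 CPM, and fibroblast markers 136 to 231. Endothelial markers gave 6.65 to 17.3 CPM and conventional dendritic cell markers 1.44 to 3.35. The part of these levels in the results was not tested, and in bulk RNA fewer cells of a type and less RNA per cell cannot be told apart.

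No member passed the test between any of the 3 pairs of groups. By edgeR's quasi-likelihood test across 10781 genes with Benjamini-Hochberg adjustment at 0.05, 0 of 38 members were called for KO against WT, where 0% of all genes were called, and the same 0% held for KO with itaconate against KO (0 of 38) and against WT (0 of 38). DESeq2 called 1, 12 and 17 genes in these comparisons and voom 0, with no member among them. At an unadjusted p under 0.05, 3 members stood below the line for KO against WT (all higher in KO), or 7.89% against 3.13% of all genes (337). The count was 2 members (both lower) for KO with itaconate against KO, with 8.3% of all genes, and 3 members (1 higher and 2 lower) for KO with itaconate against WT, with 8.89%. The median log2 fold change of the members was -0.04, -0.04 and 0.03 in these 3 comparisons, beside -0.01, -0.02 and -0.01 over all genes tested. Signs were split almost evenly, with 17 members above and 21 below 0 for KO against WT, 18 and 20 for KO with itaconate against KO, and 20 and 18 for KO with itaconate against WT. By role, KO against WT had 5 above and 1 below for the transcription factors and 1 and 5 for the enzymes. The effectors had 3 and 2, the transporters 2 and 3, the synthetases 5 and 7, and the ER genes 1 and 3.

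**Figure D1:**
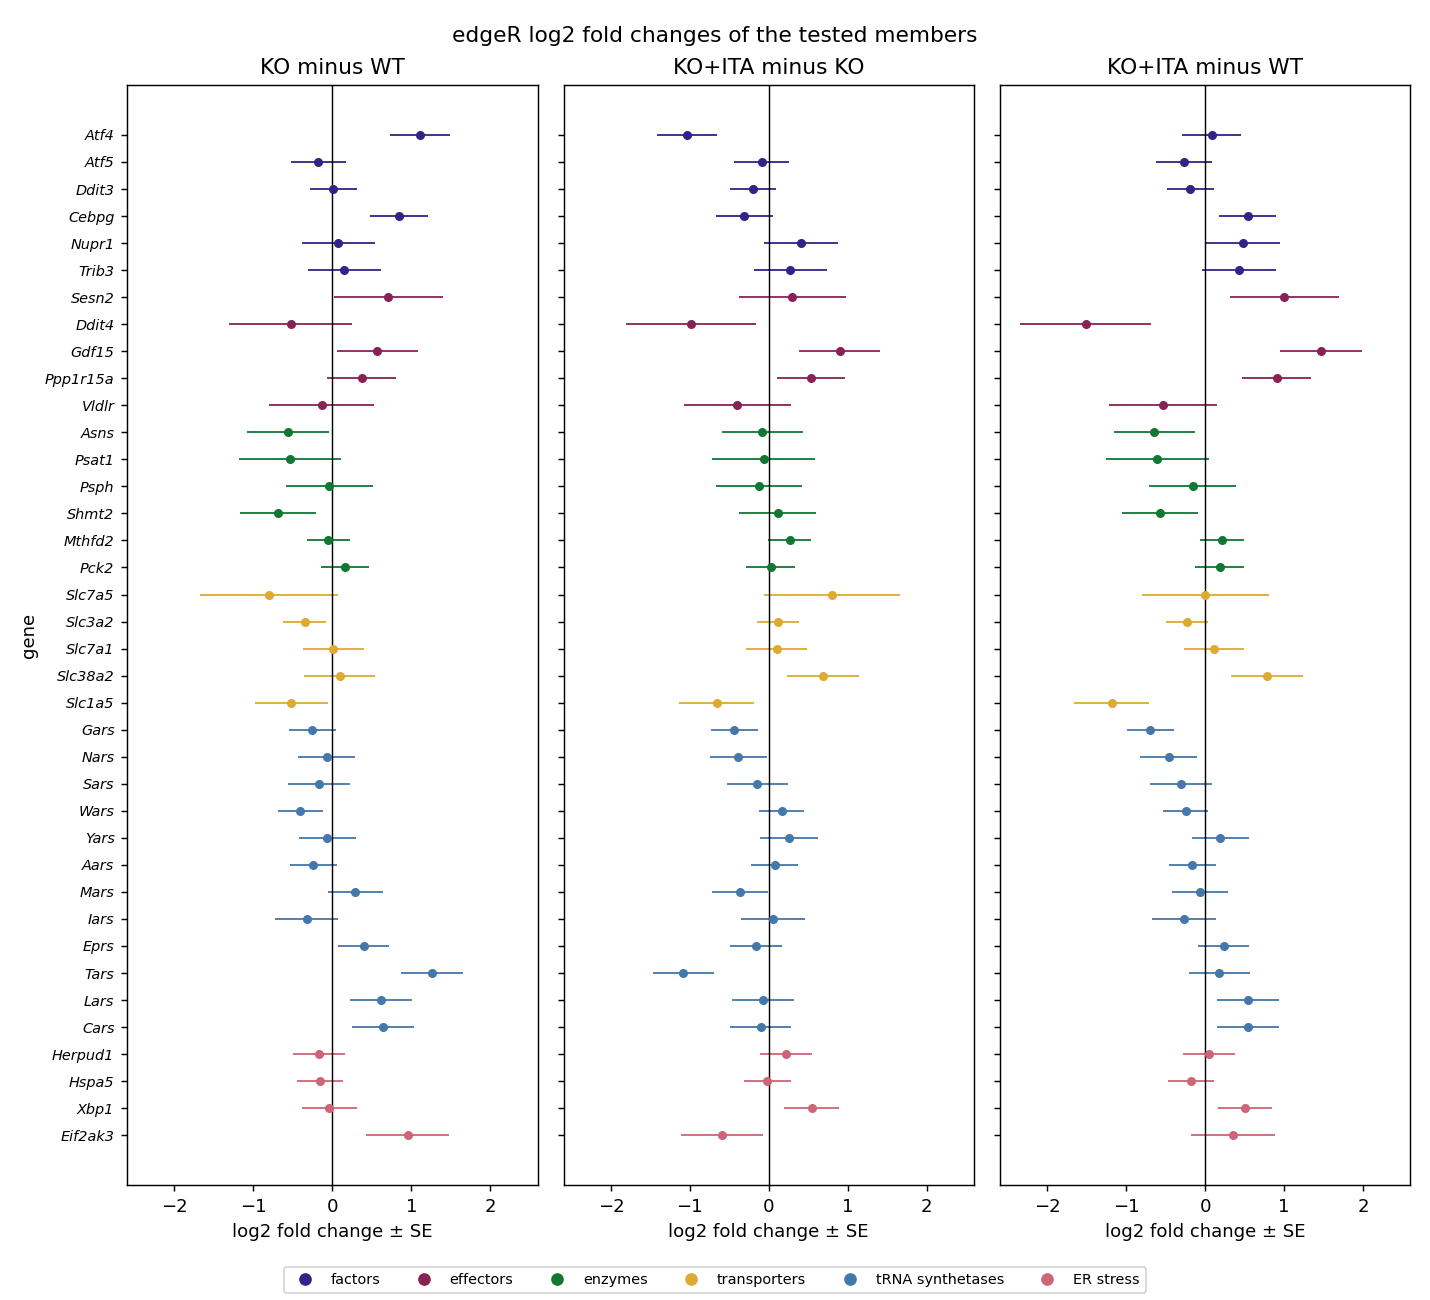
Log2 fold change of each tested member, grouped by role, in the 3 comparisons of groups as labelled, with bars of 1 standard error from the edgeR fit over 9 libraries (3 per group). Points lie on both sides of 0 in every role and none passed the adjusted threshold.

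Whether 3 libraries of a group all lie outside the range of the other group gives a second view. For KO against WT, 1 member was wholly higher (background 4.85%) and 0 wholly lower (background 5.76%). For KO with itaconate against KO, 0 were wholly higher (background 5.61%) and 2 wholly lower (background 5.29%). For KO with itaconate against WT, 2 were wholly higher (background 7.3%) and 0 wholly lower (background 7.25%). The members' shares were at or below the backgrounds throughout.

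The transcription factors come first, led by Atf4 itself. Atf4 was at 319, 259 and 380 CPM in the WT libraries, 380, 1227 and 467 in KO, and 324, 329 and 361 in KO with itaconate. KO replicate 2 was far above the other 8 libraries, which span 259 to 467 CPM, and the KO group did not overlap the itaconate group but met the top of the WT range. The mean was 319 ± 60.8 CPM in WT, 691 ± 466 in KO and 338 ± 20.5 in KO with itaconate (SD, n = 3). On the log2 scale Atf4 differed by 1.11 ± 0.38 (SE) for KO against WT, with an adjusted p of 0.995 in edgeR, and by 0.41 without KO replicate 2. For KO with itaconate against KO the difference was -1.03 ± 0.38 (adjusted p 0.523, edgeR), and -0.33 without KO replicate 2. KO with itaconate against WT differed by 0.08 ± 0.38. Leaving out the 4 libraries that went against their Irg1 labels gave 1.10, -1.33 and -0.23, the first and last against the lone WT replicate 3.

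In the library with high Atf4, the members were highest about as often as all genes. Of the 38 tested members, KO replicate 2 was the highest of the 9 libraries for 3 (Atf4, Mars and Cars), or 7.89%, beside 6.93% of all genes. The count includes Atf4, by which the library was picked. KO replicate 2 was the lowest for 5 (Mthfd2, Slc7a5, Slc7a1, Herpud1 and Xbp1), or 13.2%, beside 5.87% of all genes. Asns at 5.82 CPM, Ddit3 at 60.6 and Trib3 at 5.52 in that library lay within the range of the other 8. By role, the median log2 difference from a gene's mean there was 0.17 for the synthetases and 0.11 for the transcription factors. It was -0.02 for the transporters, -0.14 for the ER genes, -0.24 for the enzymes and -0.58 for the effectors.

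Ddit3 encodes CHOP, a factor of prolonged stress that promotes cell death. Its level was 97.3, 67.7 and 66.6 CPM in WT, 83.7, 60.6 and 89.5 in KO, and 66.5, 52 and 84.9 in KO with itaconate. The groups overlapped fully, with means of 77.2 ± 17.4, 77.9 ± 15.3 and 67.8 ± 16.5 CPM (SD, n = 3). The log2 differences were 0.01 ± 0.29 for KO against WT, -0.20 ± 0.29 for KO with itaconate against KO and -0.19 ± 0.29 against WT, and 0.14, -0.31 and -0.17 without the 4 libraries. Cebpg encodes C/EBP gamma, a partner of ATF4. It stood at 85.6, 58.6 and 65.7 CPM in WT, 101, 109 and 167 in KO, and 62.4, 76 and 166 in KO with itaconate. It was the member wholly higher in KO than in WT, and the highest library of each KO group was its replicate 3, high in Irg1. The log2 difference of KO against WT was 0.85 ± 0.37 (adjusted p 0.995, edgeR), between 0.61 and 1.02 with any library left out and 0.70 without the 4 libraries.

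Trib3, a pseudokinase that restrains ATF4 and CHOP activity, was low, at 5.88, 3.9 and 7.76 CPM in WT, 3.23, 5.52 and 10.8 in KO, and 9.79, 5.26 and 8.35 in KO with itaconate. All 3 groups overlapped, and the log2 differences of 0.15 ± 0.47, 0.27 ± 0.46 and 0.43 ± 0.47 (KO against WT, then KO with itaconate against KO and against WT) were within 1 standard error. Without the 4 libraries they were -0.81 ± 0.59, 0.77 ± 0.49 and -0.04 ± 0.60, so both differences from WT turned sign. Atf5, a related factor also controlled by translation, ranged from 10.8 to 25.6 CPM. Nupr1, a small chromatin-associated stress protein, ranged from 23.5 to 128 CPM with its highest value in KO with itaconate replicate 3.

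**Figure D2:**
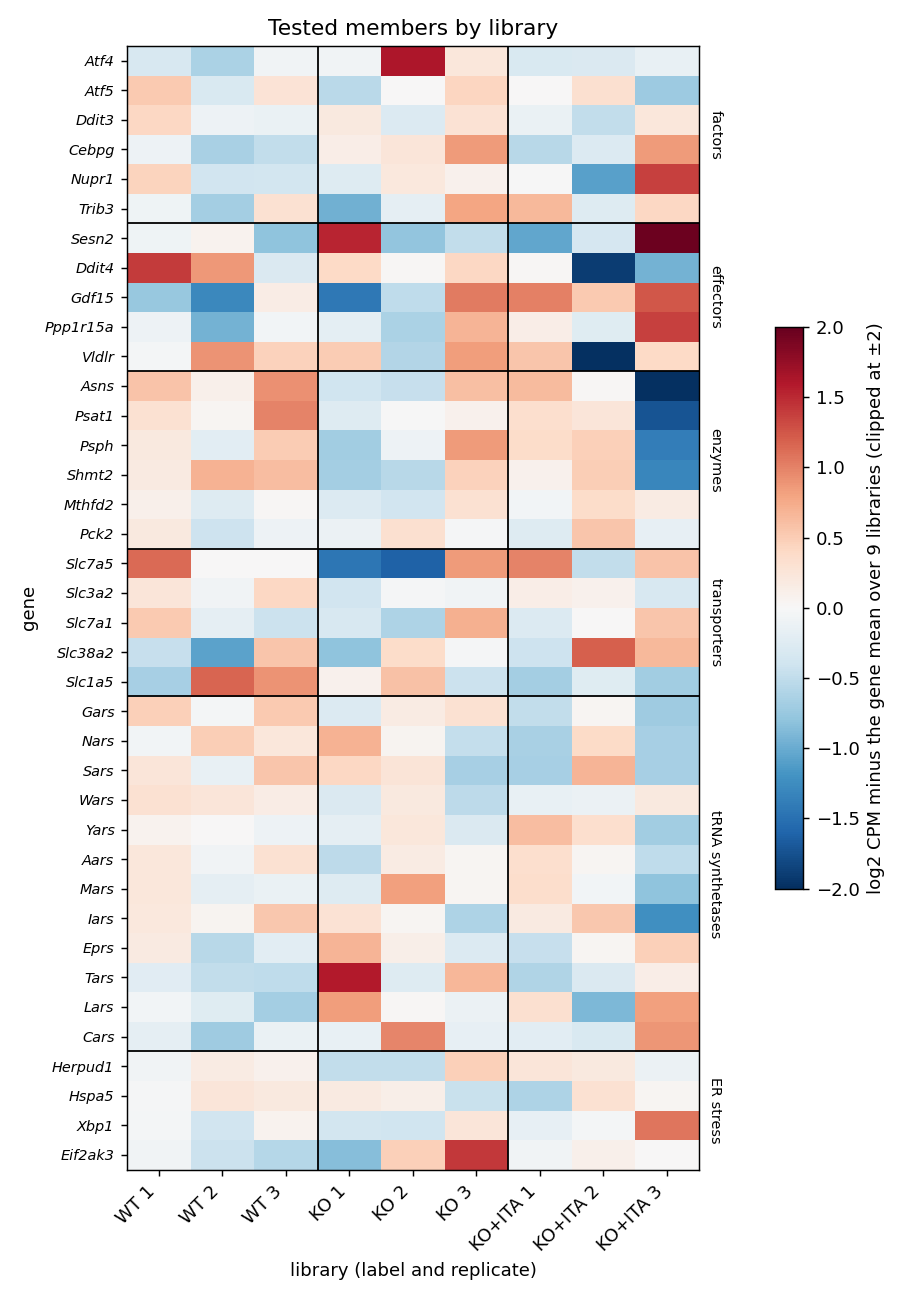
Heat map of the 38 tested members (rows, by role) in the 9 libraries (columns, by labelled group), as log2 CPM minus the gene's mean over the libraries, with colours clipped at a difference of ±2. Single libraries stand out, as KO replicate 2 for Atf4, KO replicate 1 for Tars and KO with itaconate replicate 3 for 4 of the enzymes.

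Among the effectors, Gdf15 is a secreted stress cytokine that acts on the hindbrain to reduce appetite. Its level was 21.6, 14.9 and 40.5 CPM in WT, 13.5, 25.7 and 75.2 in KO, and 73.7, 52.5 and 86.3 in KO with itaconate. Each itaconate library was above each WT library, while KO replicate 3 lay inside the itaconate range. In every group replicate 3, the library high in Irg1, was the highest. The means were 25.7 ± 13.3, 38.1 ± 32.7 and 70.8 ± 17.1 CPM (SD, n = 3). KO with itaconate exceeded WT by 1.47 ± 0.52 on the log2 scale (adjusted p 0.522, edgeR) and KO by 0.90 ± 0.51 (adjusted p 0.653). Without the 4 libraries that went against their Irg1 labels these became 0.64 and 1.66 ± 0.39. KO against WT, at 0.57 ± 0.51 over all libraries, was then -1.03 ± 0.45, with WT replicate 3 set against KO replicates 1 and 2. The difference of KO with itaconate from KO was the one called value of any member under any alternative (adjusted p 0.028, edgeR), in a fit that called 1.91% of 11342 genes.

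The same values can be read by pool. Over the 5 libraries of pool 1 Gdf15 ranged from 13.5 to 40.5 CPM, and over the 4 libraries of pools 2 to 4 from 52.5 to 86.3, with no overlap. It was the only tested member so separated, with 3.13% of all genes wholly higher and 1.98% wholly lower in pools 2 to 4. Within pool 2, the only pool to hold both labels, KO replicate 3 was at 75.2 CPM and KO with itaconate replicate 1 at 73.7. With pool as a term the difference of KO with itaconate from KO was -0.03 ± 0.63, which rests on that pair of libraries alone. No pool held WT libraries together with libraries given itaconate, so for that pair pool and treatment cannot be told apart. The same holds for KO with itaconate against KO without the 4 libraries. There the KO libraries are of pool 1 and the itaconate libraries of pools 2 and 3.

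**Figure D3:**
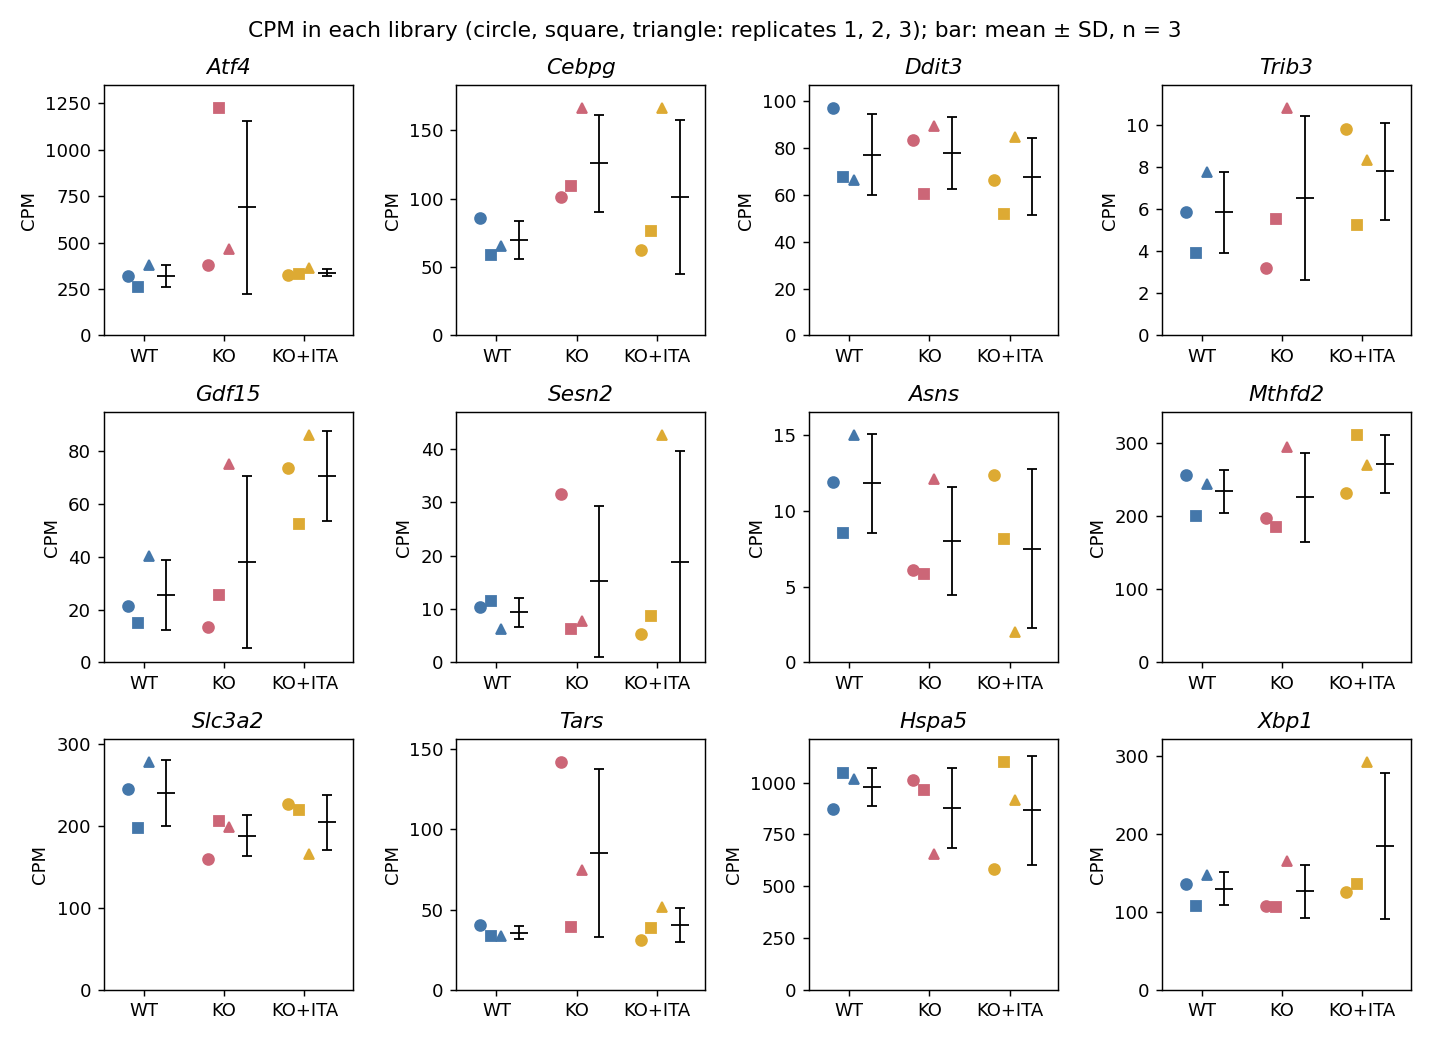
CPM of selected members in each library (points, by labelled group), with the group mean and bars of 1 SD (n = 3); each panel has its own axis from 0, which cuts the lower bar of Sesn2. One KO library is far above the others for Atf4 and 1 for Tars, and the itaconate libraries are all above WT for Gdf15.

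Among the remaining effectors, Ppp1r15a encodes GADD34, which directs dephosphorylation of eIF2 and so ends the response. It was at 37.7, 21.1 and 38.8 CPM in WT, 35.2, 26.1 and 64.9 in KO, and 44.2, 34.1 and 104 in KO with itaconate. Replicate 3, the library high in Irg1, was the highest of every group. KO with itaconate differed from WT by 0.91 ± 0.44 (adjusted p 0.569, edgeR), by 0.28 without its replicate 3 and by 0.01 without the 4 libraries. Sesn2, a sestrin that holds back mTORC1 when leucine is short, was at 31.5 CPM in KO replicate 1 and 42.6 in KO with itaconate replicate 3, and at 5.36 to 11.5 in the other 7 libraries. Ddit4 (REDD1), another brake on mTORC1, had 2 to 22 reads per library. It was 2.16, 1.48 and 0.669 CPM in WT, 1.08, 0.832 and 1.08 in KO, and 0.831, 0.219 and 0.423 in KO with itaconate. All itaconate libraries lay below the KO libraries for Ddit4. At 0.8311 CPM (9 reads), itaconate replicate 1 was barely below KO replicate 2 at 0.8317 (11 reads). Counts this low leave the differences of -0.99 ± 0.83 (against KO) and -1.52 ± 0.83 (against WT, adjusted p 0.601 in edgeR) wide. These were -0.85 and -0.32 without the 4 libraries. Vldlr, a lipoprotein receptor, ranged from 0.329 to 5.08 CPM, with 3 reads in its lowest library, KO with itaconate replicate 2. Chac1, which breaks down glutathione and is among the most ATF4-dependent genes, was not tested, having 0 to 13 reads per library, with 0 in KO replicate 3 and in KO with itaconate replicates 1 and 3.

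The enzymes supply asparagine, serine, glycine and one-carbon units. Asns, asparagine synthetase, was at 11.9, 8.51 and 15 CPM in WT, 6.06, 5.82 and 12.1 in KO, and 12.4, 8.12 and 2.01 in KO with itaconate. The groups overlapped, and the lowest library was KO with itaconate replicate 3. Log2 differences were -0.56 ± 0.51 for KO against WT, -0.08 ± 0.52 for KO with itaconate against KO and -0.64 ± 0.52 against WT. Without the 4 libraries Asns was -1.31 ± 0.49 for KO against WT, 0.77 ± 0.41 for KO with itaconate against KO, which turned sign, and -0.55 ± 0.49 against WT. Mthfd2, the mitochondrial folate enzyme, was at 257, 201 and 244 CPM in WT, 198, 185 and 295 in KO, and 232, 311 and 270 in KO with itaconate. Its highest library exceeded its lowest by 1.69-fold, the smallest ratio of any member with enough reads, and all groups overlapped, with differences of -0.05, 0.26 and 0.21, each ± 0.28, or -0.33, 0.48 and 0.15 without the 4 libraries. Psat1, Psph and Shmt2, of serine and glycine synthesis, ranged over 0.529 to 3.48, 1.48 to 6.99 and 2.11 to 8.43 CPM, each lowest in KO with itaconate replicate 3. Pck2, the mitochondrial PEP carboxykinase, ranged from 12.7 to 24.8 CPM. Phgdh, the first enzyme of serine synthesis, was not tested, with 0 to 7 reads per library.

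The transporters bring in the amino acids. Slc3a2, the CD98 heavy chain that carries the light chains to the surface, was at 245, 197 and 278 CPM in WT, 159, 205 and 199 in KO, and 227, 219 and 166 in KO with itaconate. The groups overlapped, with differences of -0.35, 0.12 and -0.23 on the log2 scale, each ± 0.27, or -0.59, 0.26 and -0.32 without the 4 libraries. Its partner Slc7a5, the leucine transporter LAT1, had 17, 12 and 7 reads in WT, 7, 4 and 17 in KO, and 20, 6 and 13 in KO with itaconate. These overlapping counts gave -0.80 ± 0.87, 0.80 ± 0.87 and 0.00 ± 0.80, or -1.48, 1.91 and 0.43 without the 4 libraries. Slc38a2 (SNAT2), a neutral amino acid carrier, was at 101, 66.6 and 205 CPM in WT, 80.3, 180 and 138 in KO, and 105, 319 and 218 in KO with itaconate. Groups overlapped, and the difference of KO with itaconate from KO was 0.69 ± 0.45 (adjusted p 0.707, edgeR), and 0.66 without the 4 libraries. Slc1a5 (ASCT2), the glutamine carrier, was at 3.36, 11.9 and 9.9 CPM in WT, 5.62, 7.94 and 3.94 in KO, and 3.32, 4.5 and 3.28 in KO with itaconate. WT replicate 1 was as low as the itaconate libraries, and the difference of KO with itaconate from WT was -1.18 ± 0.48 (adjusted p 0.542, edgeR) and -1.35 without the 4 libraries. Slc7a1, the cationic amino acid carrier, ranged from 11.6 to 29.1 CPM.

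The synthetases, which load amino acids on to their tRNAs, differed in which library was high. Tars (threonyl) was at 40.4, 33.3 and 33.2 CPM in WT, 142, 39.4 and 74.4 in KO, and 30.9, 38.4 and 51.7 in KO with itaconate. KO replicate 1 was the high library, and KO replicate 2 overlapped both other groups. The mean was 35.7 ± 4.15 CPM in WT, 85.3 ± 52.2 in KO and 40.3 ± 10.5 in KO with itaconate (SD, n = 3). Tars had the smallest p of any member in KO against WT, at 1.26 ± 0.39 on the log2 scale with an adjusted p of 0.995 in edgeR, and 0.67 without KO replicate 1. For KO with itaconate against KO it was -1.08 ± 0.39 (adjusted p 0.52, edgeR), and -0.50 without KO replicate 1. Without the 4 libraries the values were 1.47 and -1.42.

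KO replicate 1 was also the highest library for Nars, Eprs and Lars, making 4 of 12 synthetases, where 15.2% of all genes were highest there. Nars (asparaginyl) was at 171, 251 and 209 CPM in WT, 288, 184 and 128 in KO, and 114, 233 and 112 in KO with itaconate, with wide overlap and differences of -0.07 ± 0.36, -0.39 ± 0.36 and -0.46 ± 0.36, or 0.19, -0.48 and -0.28 without the 4 libraries. Gars (glycyl) was at 47, 33 and 48.7 CPM in WT, 28, 38 and 41.9 in KO, and 24.2, 34.7 and 20.7 in KO with itaconate. The itaconate libraries were mostly below WT but overlapped it through replicate 2, with a difference of -0.69 ± 0.30 (adjusted p 0.549, edgeR) and -0.74 without the 4 libraries. Cars (cysteinyl) was at 79.5 CPM in KO replicate 2 and 74.2 in KO with itaconate replicate 3, and at 24.6 to 37.1 in the other 7 libraries. For KO against WT, Cars differed by 0.64 ± 0.39, by 0.16 without KO replicate 2 and by 0.67 without the 4 libraries. The rest spanned 223 to 520 CPM for Eprs (glutamyl-prolyl), 85.6 to 216 for Sars (seryl), 38.1 to 127 for Lars (leucyl), 29.4 to 53.1 for Aars (alanyl), 11.8 to 21 for Wars (tryptophanyl), 10.8 to 33.2 for Mars (methionyl), 5.29 to 17.9 for Iars (isoleucyl) and 5.71 to 14.3 for Yars (tyrosyl).

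The ER genes come from the neighbouring unfolded protein response. Hspa5, the ER chaperone BiP, was at 874, 1049 and 1016 CPM in WT, 1011, 967 and 655 in KO, and 582, 1099.6 and 917 in KO with itaconate. The groups overlapped, with means of 979 ± 92.8, 878 ± 194 and 866 ± 262 CPM (SD, n = 3) and differences of -0.16, -0.02 and -0.18 on the log2 scale, each ± 0.29, or -0.02, -0.27 and -0.29 without the 4 libraries. Xbp1, the factor activated by IRE1 splicing, was at 136, 107 and 147 CPM in WT, 107, 106 and 166 in KO, and 125, 135 and 292 in KO with itaconate. One library, KO with itaconate replicate 3, was above all others, and the difference from KO of 0.54 ± 0.35 (adjusted p 0.695, edgeR) was 0.03 without it and 0.26 ± 0.34 without the 4 libraries. Gene counts do not tell the spliced from the unspliced Xbp1 message. Eif2ak3 (PERK), the kinase that links ER stress to eIF2, was at 3.6, 2.81 and 2.54 CPM in WT, 2.1, 5.29 and 10.1 in KO, and 3.6, 4.06 and 3.81 in KO with itaconate. The itaconate libraries were all at or above the top WT library by a small margin, at 0.36 ± 0.53, and KO against WT was 0.95 ± 0.53 (adjusted p 0.995, edgeR), or 0.32 without KO replicate 3 and 0.55 ± 0.80 without the 4 libraries. Herpud1, of ER-associated degradation, ranged from 8.54 to 16.7 CPM.

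**Figure D4:**
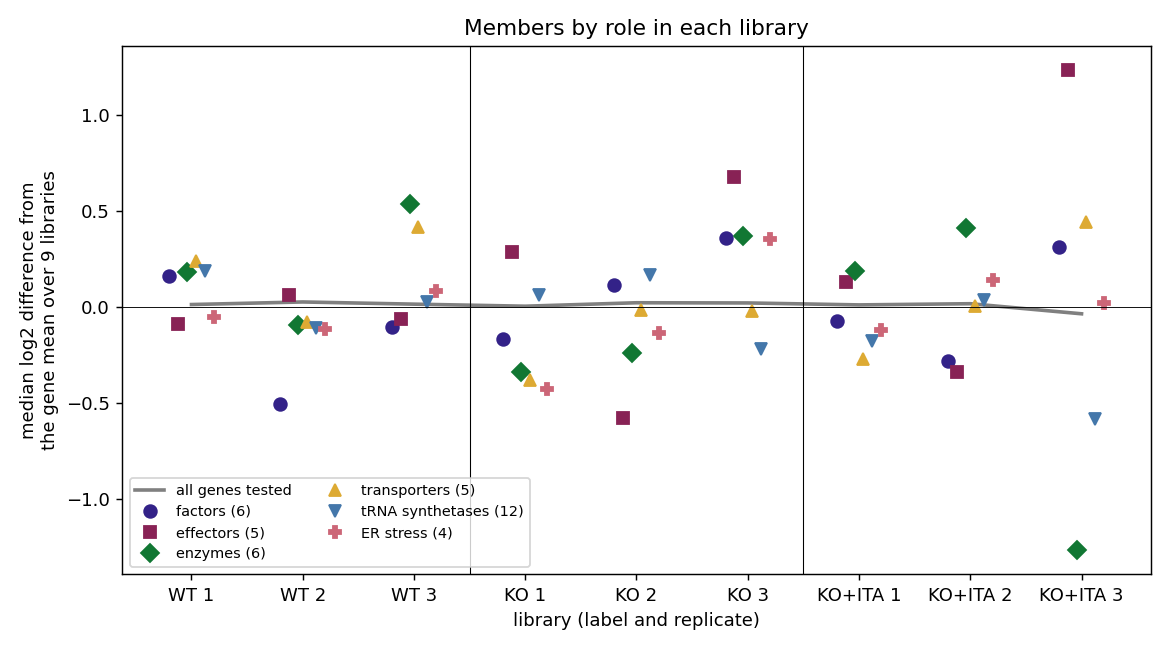
Median over the members of each role of log2 CPM minus the gene's mean, in each library (points, by labelled group); the grey line is the median over all genes tested. KO with itaconate replicate 3 is at 1.24 for the effectors and -1.27 for the enzymes, the widest values shown.

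The roles did not shift together in single libraries. In KO with itaconate replicate 3 the median deviation from a gene's mean was 1.24 on the log2 scale for the effectors and -1.27 for the enzymes, of which 4 of 6 were at their lowest there (Asns, Psat1, Psph and Shmt2). Those 4 had only 19, 5, 14 and 20 reads in that library. The synthetases had a median of -0.58 in it, with 5 of 12 at their lowest, and the transcription factors 0.31. Across all members that library was highest for 13.2% and lowest for 28.9%, beside 19.8% and 26% of all genes. Its lower correlation and mitochondrial share are given above, and their part in these values was not tested. Over the 36 members with at least 4 reads in every library, the highest library exceeded the lowest by a median of 3.15-fold (range 1.69 to 7.96), beside 2.6-fold for 9957 genes.

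Because pool and label are entangled, values by pool stand beside the pooled ones. Within pool 1, KO replicates 1 and 2 against the 3 WT libraries gave 1.35 ± 0.40 for Atf4, 1.37 ± 0.43 for Tars, 0.61 ± 0.27 for Cebpg, 0.85 for Cars and 0.31 ± 0.50 for Eif2ak3, so Eif2ak3 was the one well below its pooled value. With pool as a term, KO with itaconate against KO gave -0.53 ± 0.62 for Atf4, -1.27 ± 0.67 for Tars, -0.41 ± 0.41 for Xbp1 and -0.40 ± 0.70 for Slc38a2. Pools 3 and 4 hold 1 itaconate library each and no other. These values therefore rest on KO with itaconate replicate 1 against KO replicate 3, both of pool 2, and KO replicate 3 went against its Irg1 label. Xbp1 and Slc38a2 changed sign and Atf4 lay nearer to 0 than before, by more than the 0.38 of its standard error without the term. With the same term KO with itaconate against WT gave -0.56 ± 0.93 for Slc1a5, -1.17 ± 0.54 for Gars, -0.63 ± 0.59 for Ppp1r15a and -0.41 ± 0.75 for Gdf15, the last pair again with the sign turned. This last contrast is reached only through KO and the same 2 libraries of pool 2, since no pool holds both groups.

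Outside the members, a list of 64 further genes of the pathway covered the eIF2 kinases, eIF2 and eIF2B subunits, other ATF4 targets, other synthetases, chaperones and mitochondrial stress genes. Of these 57 were tested and 0 were called by edgeR in any comparison, with 1 (KO against WT), 2 (KO with itaconate against KO) and 7 (against WT) at an unadjusted p under 0.05. These are 1.75%, 3.51% and 12.3% of the 57, beside 3.13%, 8.3% and 8.89% of all genes. KO against WT had 33 above and 24 below 0 (median 0.18), KO with itaconate against KO 23 and 34 (median -0.13), and KO with itaconate against WT 31 and 26 (median 0.04). For KO against WT, 0 of the 7 other ATF4 targets tested were above 0 (median -0.31). Other unfolded protein response genes had 15 above and 8 below, eIF2 kinases and phosphatase 4 and 0, and subunits 4 and 4. Other synthetases had 5 and 3, and mitochondrial stress genes 5 and 2. The smallest p-values belonged to Pdia3 (1.17 ± 0.52) and Edem1 (-0.81 ± 0.42) for KO against WT. They were Eif2ak4 (-0.95 ± 0.39) and Vars (-0.89 ± 0.41) for KO with itaconate against KO, and Hars (1.30 ± 0.41, adjusted p 0.515 in edgeR) and Gpt2 (-1.50 ± 0.51) against WT. Leaving out the 4 libraries gave 1.23 for Pdia3, -0.43 for Edem1, -1.10 for Eif2ak4, -1.11 for Vars, 0.53 for Hars and -1.59 for Gpt2. Pdia3 is an ER disulfide isomerase, Edem1 acts in ER-associated degradation, Eif2ak4 is the amino acid sensor GCN2, Vars and Hars are the valyl and histidyl synthetases, and Gpt2 is a mitochondrial alanine aminotransferase. Slc7a11, the cystine importer xCT and a gene shared between ATF4 and NRF2, was at 79.6, 54 and 148 CPM in WT, 62, 65.5 and 135 in KO, and 93, 111 and 227 in KO with itaconate. The 3 groups overlapped, replicate 3 (high in Irg1) was the highest of each, and the differences were -0.10 ± 0.43, 0.72 ± 0.44 and 0.62 ± 0.44. Slc7a11 without the 4 libraries gave -1.19 ± 0.41 for KO against WT, 0.65 ± 0.34 for KO with itaconate against KO and -0.54 ± 0.41 against WT, the last with its sign turned.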

How the data were processed

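Deposited values were raw read counts per gene in 9 libraries made from 3′ ends with barcoded oligo-dT primers and without molecular identifiers, per the labels' protocols. The authors aligned to mm10 with STAR and counted with HTSeq, per the submitters' processing notes; for both tools the version, and for counting the strand setting, are not given in the sources used here. HTSeq's summary lines (no feature, not unique, ambiguous) held 42.3% to 51.0% of reads and were left out. Of 22165 identifiers, 21745 had a symbol. Of the 40 members, 34 share no exon with another counted gene; Atf5, Ddit3, Ppp1r15a, Shmt2, Yars and Mars overlap a neighbour (GENCODE M21), so their reads are less certain.

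Genes were filtered with filterByExpr (minimum count 10), TMM-scaled and fitted with edgeR 4.0.16 (R 4.3.3) by the quasi-likelihood F test over all 9 libraries with group as the only term, and Benjamini-Hochberg adjustment over 10781 genes at 0.05. The standard error is the log2 fold change divided by the square root of F. The script was checked on simulated data. DESeq2 1.42.0, limma 3.58.1 (voom), other scalings and filters, pool and replicate terms, and omission of libraries were alternatives. Libraries within a group differed by more than counting noise, so none was merged.

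All members were named. Values per library were given for a fixed panel and for the 5 tested members with the smallest p in each comparison, those of Cars partly as a range. From the pathway list, the 2 genes with the smallest p in each comparison were given by their log2 differences only. The members and lists were chosen with earlier results of these data known. Same-numbered replicates were not treated as pairs.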

Additional observations from a re-analysis of the deposited data

How the results depend on the processing

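No member was called by edgeR, DESeq2 or voom in any comparison except Gdf15 for KO with itaconate against KO without the 4 libraries whose Irg1 level went against the label. In that fit the KO and the itaconate libraries share no pool. Over all genes, the count called for KO against WT (0) was 1 with DESeq2 and 2 without the 4 libraries, where WT is 1 library. For KO with itaconate against KO (0) it was 80 with no filter on low counts, 12 with DESeq2 and 217 without the 4 libraries, and for KO with itaconate against WT (0) it was 92, 17 and 1. Leaving out 1 library at a time gave 0 to 0, 0 to 6 and 0 to 4 genes, the highest without KO with itaconate replicate 1. The members' median log2 fold change for KO against WT moved to -0.26 without the 4 libraries. With pool as a term it was -0.23 for KO with itaconate against KO and -0.39 against WT, both resting on replicate 1 alone of the itaconate libraries. With 1 library left out it ran from -0.17 to 0.02, -0.09 to 0.00 and -0.09 to 0.07. Not every same-numbered pair of libraries had deviations correlated above 0.1 (correlations 0.102, 0.029 and 0.245 for KO with WT, -0.159, 0.168 and 0.019 for KO with itaconate with KO, and -0.018, -0.049 and -0.079 with WT). With the replicate block 0 genes were called in each comparison, and the members' medians were -0.07, -0.05 and -0.03. The cause of these shifts was not tested. Scaling by library totals alone shifted the median of all genes for KO with itaconate against WT to -0.11 and that of the members to -0.07. Low counts limit Chac1, Phgdh, Ddit4, Slc7a5, Vldlr and Psat1.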
